A study of Mus musculus with 4 samples.

Results

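Prostaglandins are short-lived lipid signals that are made and cleared by a small set of enzymes, and 10 of their genes were examined in the injured mouse colon lining: Pla2g4a, Ptgs1, Ptgs2, Ptges, Ptges2, Ptges3, Ptger4, Slco2a1, Hpgd and Ptgr1. They were chosen by name for their roles in making, sensing, importing or breaking down prostaglandins. All 10 were listed among the 18872 gene identifiers in the deposited tables, and all 10 were among the 13608 genes with enough counts for testing. The tables hold 4 RNA-seq libraries labelled as primary epithelial cells from the mouse colon. Markers of smooth muscle, endothelial and immune cells were also listed, as given below, so the levels need not be those of epithelial cells alone. The mice had received 2% dextran sulfate sodium (DSS), a polysaccharide that damages the colon lining, for 3 days. The 2 wild-type libraries (WT-DSS) are compared with 2 libraries of genotype EZH2-IEC-/- (knockout, KO-DSS), in which Ezh2, the methyltransferase of Polycomb repressive complex PRC2, is lost in intestinal epithelial cells. The labels give no strain, age, Cre driver or number of mice per library, and all 4 libraries come from DSS-treated mice, so each value is a difference between genotypes under injury.

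As background, the cytosolic phospholipase A2 encoded by Pla2g4a frees arachidonate from membranes, and the cyclooxygenases Ptgs1 (largely constitutive) and Ptgs2 (inducible) turn it into the common precursor of all prostanoids. Terminal synthases then make prostaglandin E2, which acts on cells through EP receptors, among them EP4, the product of Ptger4. The transporter encoded by Slco2a1 brings prostaglandins into cells, where hydroxyprostaglandin dehydrogenase (Hpgd) oxidises and inactivates them and the reductase Ptgr1 acts on the resulting keto intermediates. In the colon, prostaglandin E2 is known for supporting repair of the epithelium after injury, and Hpgd is abundant in differentiated colonocytes.

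The estimated counts summed to between 5037367 and 5446998 per library. Ezh2 itself was listed at 7.79 and 7.28 FPKM (fragments per kilobase of transcript, scaled to the library total) in wild type against 5.94 and 5.69 FPKM in knockout. Its difference of -0.27 ± 0.17 (log2 fold change ± standard error) had an edgeR adjusted p of 0.217, and a count over the whole gene says nothing of a deleted exon. A gene is called where its adjusted p (edgeR quasi-likelihood, Benjamini-Hochberg over all genes) was under 0.05, and fold changes are knockout minus wild type on the log2 scale. Of all genes tested, 43.7% were called, 23.0% higher and 20.8% lower in knockout, so a call is common in this comparison. Higher genes made up 52.5% of all called genes with TMM scaling and 54.3% with DESeq2, but 42.4% with library totals alone. With limma the share was 43.7% to 44.0% on FPKM, 35.9% on rescaled FPKM and 49.6% on quantile normalized FPKM.

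Hpgd, the gene for the first enzyme of breakdown, and Slco2a1, the gene for the importer, differed most of the 10 genes and fell 3.21-fold and 2.78-fold in knockout. Ptgs1 and Pla2g4a fell less, Ptges3 rose 1.48-fold, and Ptgs2, Ptges, Ptges2, Ptger4 and Ptgr1 were not called. Thus 4 of 10 genes fell and 1 of 10 rose, with a median log2 fold change of -0.16 against -0.002 over all genes tested. The 5 of 10 genes called are close to the 43.7% of all genes called, so the count sets these genes apart from no others, and the values of single genes carry the description.

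**Figure D1:**
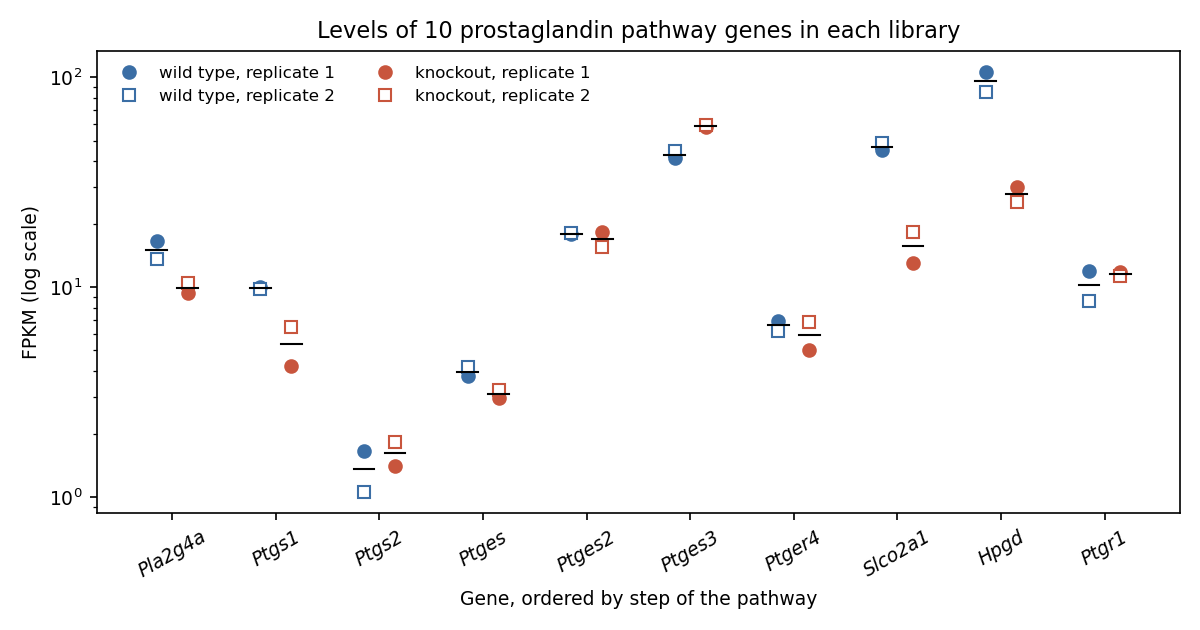
FPKM on a log scale for the 10 genes in each of the 4 libraries, with wild type in blue and knockout in red, replicate 1 as filled circles, replicate 2 as open squares, and the group mean as a black line. Hpgd lies at 84.91 and above in wild type and at 30.02 and below in knockout, whereas the points of Ptgs2, Ptges2, Ptger4 and Ptgr1 overlap between genotypes.

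Hpgd, which encodes the enzyme that inactivates prostaglandins, was listed at 106.48 and 84.91 FPKM in the wild-type libraries against 30.02 and 25.58 FPKM in the knockout libraries. Both knockout libraries lay far below both wild-type libraries. The group means were 95.7 ± 15.3 and 27.8 ± 3.14 FPKM (SD, n = 2). The log2 fold change was -1.68 ± 0.13 (95% interval -1.99 to -1.37, edgeR adjusted p = 2.01e-05). Hpgd stood at the 2.9th percentile of log2 fold changes over all genes tested. The summed FPKM of 7 colonocyte markers was also lower in knockout. On the log2 scale Hpgd differed by -0.79 relative to that sum and by -1.92 relative to a general epithelial sum. Relative to the 6 colonocyte markers that fell, a set chosen after the values were seen, Hpgd differed by -0.04. In bulk RNA fewer cells of a type and less RNA per cell cannot be told apart.

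Slco2a1, which encodes the prostaglandin transporter, was listed at 44.98 and 48.7 FPKM in wild type against 13.05 and 18.38 FPKM in knockout. The groups were again well apart, with the knockout libraries differing more from each other than the wild-type libraries did. The log2 fold change was -1.47 ± 0.15 (95% interval -1.81 to -1.14, edgeR adjusted p = 8.01e-05), at the 3.9th percentile of all genes tested. Ptgr1, the reductase downstream of Hpgd, was listed at 11.98 and 8.61 FPKM in wild type against 11.86 and 11.32 FPKM in knockout. Its groups overlapped, with the lowest value in wild-type replicate 2, and its log2 fold change of 0.27 ± 0.18 was not called (95% interval -0.13 to 0.68, edgeR adjusted p = 0.248). The importer and the first enzyme of breakdown were thus called lower, and the interval for Ptgr1 leaves room for a difference either way. The Ptgr1 value was 0.52 without wild-type replicate 1 and 0.05 without wild-type replicate 2, and was called in neither case.

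The promoters of the pair that fell most, and of the 2 cyclooxygenase genes described next, are shown, since Hpgd and Slco2a1 changed most and Ptgs1 and Ptgs2 encode alternative enzymes for one step. Each is a RefSeq window (GRCm38.p6) of 250 bases before and 50 bases after a start, printed 5′ to 3′ on the gene's strand, with the start at base 251. Capitals mark matches, on either strand, to a TATA box (TATAAA), an E-box (CACGTG), a GC box (GGGCGG) or a cAMP response element half-site (CGTCA); the NF-kappaB consensus was searched by name and has no match in these 4 windows. The windows lie at chr8:56294302-56294601 (Hpgd, plus strand), chr9:103008237-103008536 (Slco2a1, plus strand), chr2:36230176-36230475 (Ptgs1, plus strand) and chr1:150099781-150100080 (Ptgs2, plus strand).
Hpgd: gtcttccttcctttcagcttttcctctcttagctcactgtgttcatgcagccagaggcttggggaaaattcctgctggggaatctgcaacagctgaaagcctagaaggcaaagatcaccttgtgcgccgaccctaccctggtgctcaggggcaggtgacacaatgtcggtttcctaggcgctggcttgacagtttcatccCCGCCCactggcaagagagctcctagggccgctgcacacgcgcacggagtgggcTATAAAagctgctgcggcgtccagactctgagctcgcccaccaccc
Slco2a1: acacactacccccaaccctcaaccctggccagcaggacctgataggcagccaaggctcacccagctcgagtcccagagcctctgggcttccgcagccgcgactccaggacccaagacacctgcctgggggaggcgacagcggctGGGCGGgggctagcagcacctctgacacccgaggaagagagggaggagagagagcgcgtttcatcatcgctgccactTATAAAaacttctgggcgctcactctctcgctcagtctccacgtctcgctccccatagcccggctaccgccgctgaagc
Ptgs1: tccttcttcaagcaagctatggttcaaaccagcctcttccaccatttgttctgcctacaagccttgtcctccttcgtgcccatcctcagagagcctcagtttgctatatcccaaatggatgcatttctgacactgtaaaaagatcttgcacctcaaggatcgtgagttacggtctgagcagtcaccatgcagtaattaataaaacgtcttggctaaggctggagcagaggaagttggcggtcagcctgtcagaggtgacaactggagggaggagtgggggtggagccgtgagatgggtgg
Ptgs2: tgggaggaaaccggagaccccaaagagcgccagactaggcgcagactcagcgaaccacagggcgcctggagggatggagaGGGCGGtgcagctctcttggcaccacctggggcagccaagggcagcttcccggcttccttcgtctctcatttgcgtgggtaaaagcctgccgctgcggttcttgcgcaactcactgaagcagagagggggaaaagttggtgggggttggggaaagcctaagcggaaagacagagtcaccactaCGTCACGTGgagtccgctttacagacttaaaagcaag

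The letters TATAAA stand at bases 222 to 227 in Slco2a1, 29 bases before the listed start, and at bases 255 to 260 in Hpgd, just past it. Within the 100 bases around the start, these were the 2 genes of the 10 with that match, against 4.94% of all 32851 windows of the same length. Over the full window the match was found in 3 of 10 genes, the third being the second of 2 start windows listed for Pla2g4a, and in 13.6% of all windows. In Ptgs2 a CGTCA match at bases 264 to 268 overlaps an E-box at bases 267 to 272, the E-box being found in 2 of 10 genes (Ptges2 is the other) and 7.15% of all windows. The half-site was also found in Ptges3 and in 20.8% of all windows. The Ptgs1 window holds none of the motifs searched. A GC box was found in 7 of 10 genes and 35.7% of windows, and the NF-kappaB consensus in Ptges3 alone and 8.46% of windows. CpG dinucleotides numbered 46 in the window of Ptges3, 25 in Ptger4, 18 in Slco2a1 and in Ptges2, 16 in Ptgs2, 12 in Hpgd, 10 in Ptges, 7 in Ptgr1, 6 in Ptgs1, and 6 and 2 in the windows of Pla2g4a, against a median of 7 over all windows. These are descriptions of letters near the start and do not show that a factor binds there.

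Among the 10 genes, those for the first steps of synthesis were lower or not called. Ptgs1, the constitutive cyclooxygenase, was listed at 10.01 and 9.82 FPKM in wild type against 4.22 and 6.47 FPKM in knockout. The wild-type values were nearly equal and both knockout values lay below them. The log2 fold change was -0.79 ± 0.20 (95% interval -1.25 to -0.33, edgeR adjusted p = 0.0117), and it was -0.52 without knockout replicate 1 and -1.12 without knockout replicate 2. Ptgs2, the inducible cyclooxygenase that inflammation usually raises, was the least abundant of the 10 genes in both genotypes. It was counted at 35 and 25 in wild type against 32 and 45 in knockout, or 1.66, 1.06, 1.41 and 1.83 FPKM. The groups overlapped, and the log2 fold change of 0.38 ± 0.31 was not called (95% interval -0.33 to 1.08, edgeR adjusted p = 0.355). That interval reaches from a fall to more than a doubling, so the depth limits what can be said of Ptgs2. Its value was 0.66 without wild-type replicate 1, 0.59 without knockout replicate 1 and 0.13 without replicate 2 of either genotype, and was called in none of these.

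Pla2g4a, the phospholipase that supplies the cyclooxygenases, was listed at 16.66 and 13.57 FPKM in wild type against 9.38 and 10.5 FPKM in knockout. The groups did not overlap, and the log2 fold change was -0.50 ± 0.14 (95% interval -0.83 to -0.17, edgeR adjusted p = 0.0202). This call was lost with DESeq2 (adjusted p = 0.0657), without wild-type replicate 1 (edgeR adjusted p = 0.136) and without knockout replicate 1 (edgeR adjusted p = 0.0567). It is also the one gene of the 10 whose transcript list differs between files, with 1 transcript in the replicate 1 files and 2 in the replicate 2 files of both genotypes.

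**Figure D2:**
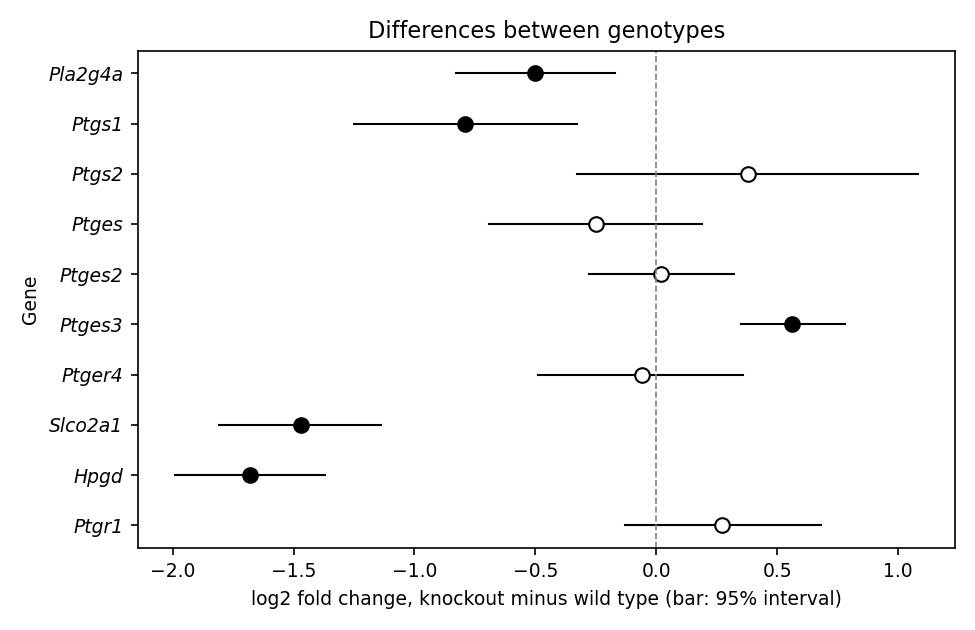
Log2 fold change, knockout minus wild type, for each of the 10 genes (points) with its 95% interval (bars), filled where the edgeR adjusted p was under 0.05. Hpgd and Slco2a1 stand at -1.68 and -1.47, Ptges3 is the one filled point to the right of 0, and the intervals of 5 genes cross 0.

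Of the 3 genes named as prostaglandin E synthases, 1 rose and 2 were not called; the differences between them were not tested. Ptges3, which encodes the cytosolic synthase that is also the Hsp90 co-chaperone p23, was listed at 41.18 and 44.39 FPKM in wild type against 58.36 and 59.53 FPKM in knockout. Both knockout values lay above both wild-type values, with a log2 fold change of 0.56 ± 0.09 (95% interval 0.35 to 0.78, edgeR adjusted p = 0.0013). Ptges, the inducible microsomal synthase that usually works with Ptgs2, was listed at 3.78 and 4.15 FPKM in wild type against 2.97 and 3.24 FPKM in knockout. Its FPKM values did not overlap, with the knockout lower, but the log2 fold change of -0.25 ± 0.19 was not called (95% interval -0.69 to 0.19, edgeR adjusted p = 0.326). Ptges2, a membrane-associated synthase, was listed at 17.86, 18.05, 18.33 and 15.65 FPKM in the 2 wild-type and the 2 knockout libraries in turn. Its groups overlapped, and the log2 fold change was 0.02 ± 0.13 (95% interval -0.28 to 0.32, edgeR adjusted p = 0.905).

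Ptger4, the receptor EP4, was listed at 6.94 and 6.22 FPKM in wild type against 5.01 and 6.83 FPKM in knockout. The highest value was in wild type and the lowest in knockout, with overlap between them. The log2 fold change was -0.06 ± 0.19 (95% interval -0.49 to 0.36, edgeR adjusted p = 0.805).

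Because FPKM is scaled to transcript length, levels of different genes can be set side by side. In wild type Hpgd was the most abundant of the 10 genes, followed by Slco2a1 (46.8 ± 2.63 FPKM) and Ptges3 (42.8 ± 2.27 FPKM). In knockout Ptges3 was the most abundant at 58.9 ± 0.827 FPKM, Hpgd was second, and Slco2a1 (15.7 ± 3.77 FPKM) had values that overlapped those of Ptges2 (17.0 ± 1.9 FPKM). The lower end kept its order, with Ptges (3.96 and 3.11 FPKM on average) above Ptgs2 (1.36 and 1.62 FPKM). Elsewhere in the order, Ptgr1 and Ptgs1 overlapped in wild type, and Ptger4 and Ptgs1 in knockout.

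Ratios of genes within a library do not depend on how libraries are scaled to each other, though the Ptgs2 length behind its FPKM is 4150 bases in the replicate 1 files and 4460 in the replicate 2 files of both genotypes. Ptgs2 made up 14.2% and 9.74% of the summed Ptgs1 and Ptgs2 FPKM in wild type against 25.0% and 22.0% in knockout, a rise of 11.6 percentage points between means. Ptgs1 was the more abundant cyclooxygenase transcript in all 4 libraries, and the larger Ptgs2 share in knockout stands beside a called fall of Ptgs1 and an uncalled difference in Ptgs2. Ptges3 made up 65.6% and 66.7% of the FPKM of the 3 synthases in wild type against 73.3% and 75.9% in knockout. The share of Ptges went from 6.02% and 6.23% to 3.73% and 4.13%. The log2 ratio of Ptgs2 to Hpgd was -6.00 and -6.32 in wild type against -4.41 and -3.81 in knockout, a 4.16-fold shift between means. The log2 ratio of Ptges to Hpgd was -4.82 and -4.35 in wild type against -3.34 and -2.98 in knockout, a 2.69-fold shift. No test is given for these ratios, since an exact two-sided permutation test of 2 libraries against 2 cannot go below p = 0.333.

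**Figure D3:**
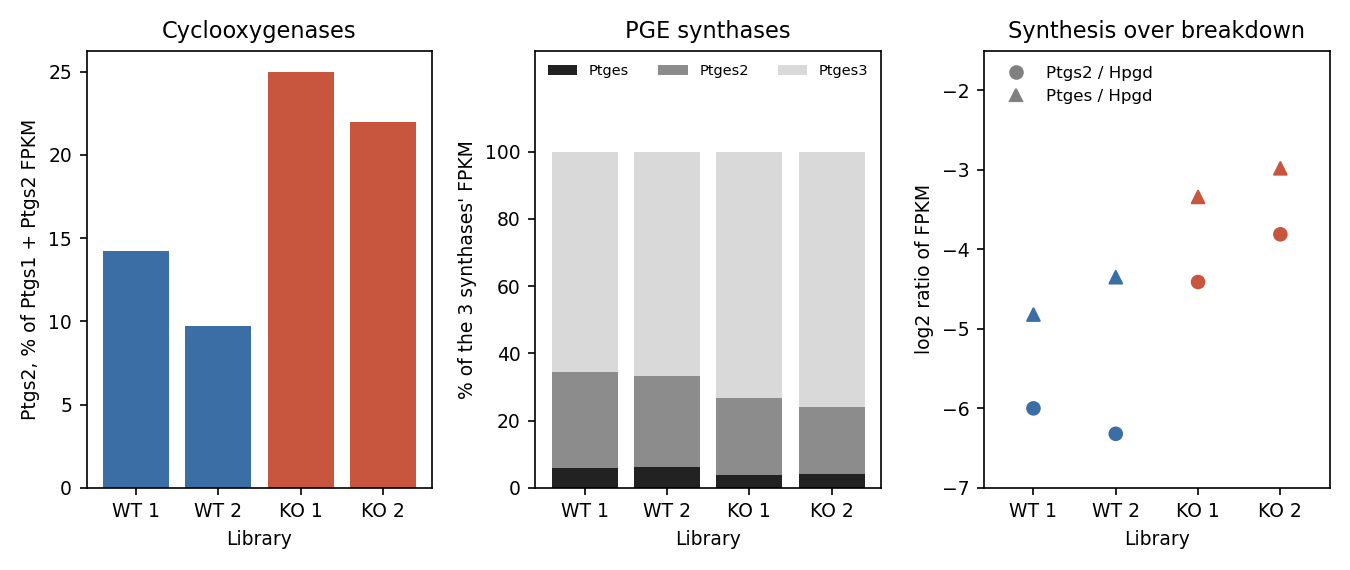
Left, Ptgs2 as a percentage of the summed Ptgs1 and Ptgs2 FPKM in each library; middle, shares of the 3 synthases; right, log2 ratio of Ptgs2 (circles) and Ptges (triangles) to Hpgd, with wild type in blue and knockout in red in the left and right panels. The Ptgs2 share is at most 14.2% in wild type and at least 22.0% in knockout, and both ratios to Hpgd are higher in each knockout library than in each wild-type library.

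Around these genes, 76 further genes of arachidonate and eicosanoid metabolism were listed by role in 5 groups, of which 59 were tested. In all, 20 of the 59 were higher and 14 lower in knockout, where 23.0% of all genes tested were higher and 20.8% lower; the counts of each list below stand against the same shares. In the list of phospholipases A2 and enzymes that return arachidonate to membranes, 10 of 19 rose and 3 fell, with a median log2 fold change of 0.54. That list also holds genes of neither class, among them Anxa1, which rose, Mgll, which was not called, and Faah, which fell. Pla2g2a, a secreted phospholipase with antibacterial action, was counted at 5 and 1 in wild type against 157 and 132 in knockout. The ratio of summed counts was 45.6, with an exact 95% binomial interval of 20.7 to 125 that covers counting error only. Some inbred mouse strains carry a disrupted Pla2g2a, and the strain of these mice is not given in the labels. Pla2g5, another secreted phospholipase, rose from 7.74 ± 1.32 to 25.5 ± 5.1 FPKM (log2 fold change 1.82). Plaat3, also known as Pla2g16, rose by 1.13 on the log2 scale, and Anxa1, which encodes the phospholipase-inhibiting protein annexin A1, rose from 148 ± 2.29 to 298 ± 23.4 FPKM. The secreted Pla2g2e and Pla2g2f also rose, by 2.94 and 0.41 on the log2 scale, whereas the secreted Pla2g3 fell by 1.02. Pla2g2e was counted at only 3 and 1 in wild type against 13 and 19 in knockout. The secreted Pla2g10 fell by 0.29 (edgeR adjusted p = 0.0462), with FPKM values that overlapped between genotypes. Of the cytosolic family, Pla2g4f rose by 0.54 while Pla2g4a was lower. Neither the secreted nor the cytosolic enzymes thus had 1 direction.

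The other terminal synthases and the other receptors held no called rise. Of 7 synthases tested, 3 fell (Hpgds, Prxl2b and Gstm2) and 0 rose (median log2 fold change -0.65). Hpgds, the hematopoietic prostaglandin D synthase, was listed at 6.2 and 5.44 FPKM in wild type against 1.04 and 1.94 FPKM in knockout (log2 fold change -1.86 ± 0.28, edgeR adjusted p = 0.000725). The list of other receptors also holds Ptgfrn, which does not encode a prostanoid receptor (log2 fold change -0.03, not called). Of the 6 genes tested in that list, 1 fell and 0 rose (median -0.29). The one that fell was Ptger3, the receptor EP3, at 6.74 and 5.66 FPKM in wild type against 3.01 and 1.67 FPKM in knockout (log2 fold change -1.30 ± 0.30, edgeR adjusted p = 0.0078).

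Among 11 other transport and breakdown genes, 3 rose and 5 fell (median -0.16). Slco2b1, an organic anion transporter of the same family as Slco2a1, fell from 3.46 ± 0.191 to 0.975 ± 0.148 FPKM. Abcc4, which exports prostaglandins from cells, was listed at 4.85 and 4.09 FPKM in wild type against 9.53 and 7.6 FPKM in knockout, a log2 fold change of 1.03 ± 0.16 (edgeR adjusted p = 0.000809). Abcc4 was thus called higher and the importer Slco2a1 lower, and whether the same cells hold both was not tested. Ptgr2 and Zadh2, which like Ptgr1 encode prostaglandin reductases, fell by 0.50 and 0.42 on the log2 scale. Slco4a1 and the carbonyl reductase Cbr3 rose by 1.45 and 1.05 on the log2 scale.

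In the lipoxygenase, leukotriene and epoxide branch, 7 of 16 genes rose and 2 fell (median 0.31), against the 23.0% higher and 20.8% lower over all genes tested. Dpep1, a dipeptidase that trims leukotrienes, fell from 20.8 ± 0.827 to 7.59 ± 1.8 FPKM, while Ggt1, the gamma-glutamyl transferase that acts before it, rose from 1.95 ± 0.396 to 5.64 ± 0.863 FPKM. Alox5, the lipoxygenase that starts leukotriene synthesis, was one of the 2 that fell, from 21 and 16 counts to 0 and 4 counts. Alox5ap, in the same list, went the other way, from 22 and 22 counts to 40 and 42 counts (log2 fold change 0.92, edgeR adjusted p = 0.0243). Ltb4r2, a leukotriene B4 receptor, rose by 1.96 on the log2 scale from 6 and 5 to 18 and 25 counts. Fpr2, a formyl peptide receptor that also binds lipoxin, was counted at 1 and 2 in wild type against 12 and 13 in knockout. The ratio of its summed counts was 7.89, with an exact 95% binomial interval of 2.41 to 40.8.

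**Figure D4:**
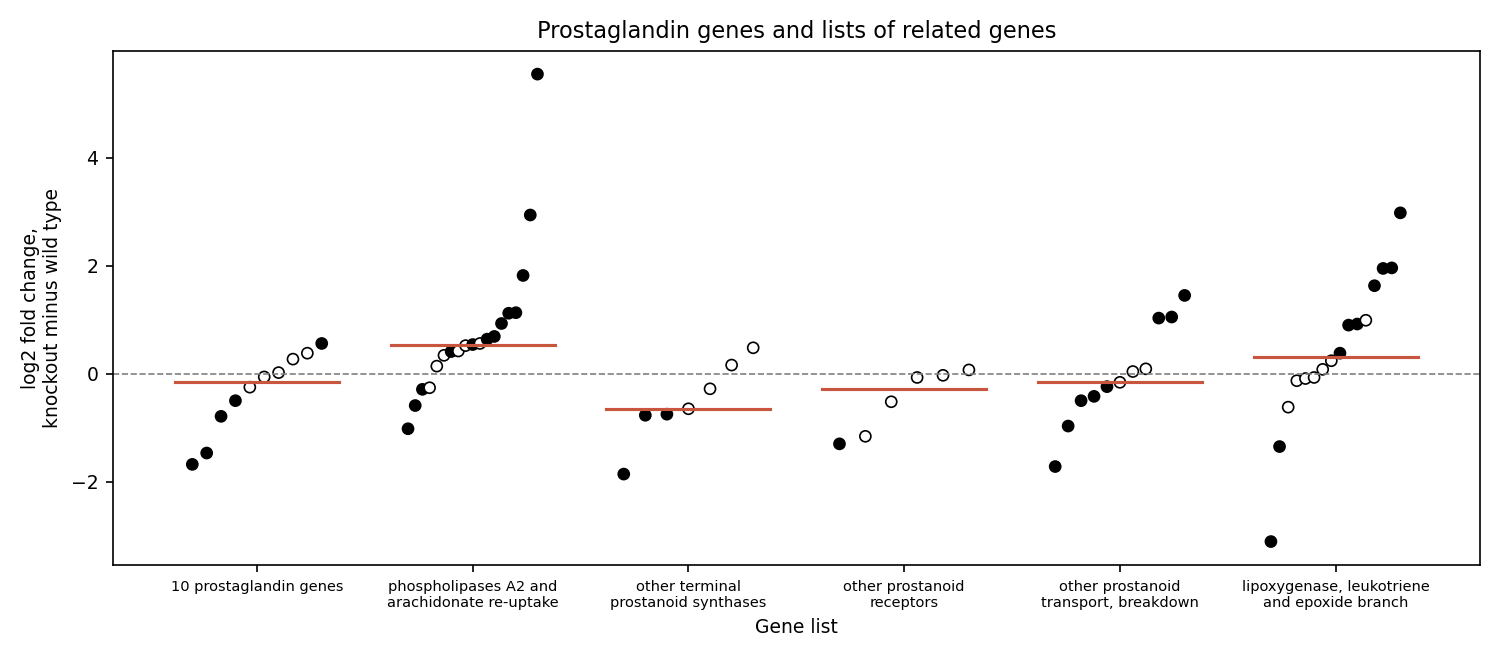
Log2 fold change, knockout minus wild type, of each tested gene among the 10 prostaglandin genes and the 5 lists of related genes, filled where the edgeR adjusted p was under 0.05, with each list's median as a red line. The list of phospholipases and arachidonate re-uptake has its median at 0.54 and the terminal synthases have theirs at -0.65.

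Markers of several cell types differed alongside. The cells expressed the epithelial keratins Krt8 and Krt19 in all 4 libraries, and the summed FPKM of 6 general epithelial markers was 8011 and 8359 in wild type against 8873 and 9212 in knockout, with 4 called higher and 2 lower (Epcam by -0.27 and Cdh1 by -0.60 on the log2 scale). Of 7 colonocyte markers 6 fell and 1 rose, and their summed FPKM went from 3835 and 3824 to 1857 and 2019, led in wild type by Car4 and Car1. The marker that rose was Krt20, a keratin of differentiated cells, from 424.29 and 403.12 FPKM to 896.04 and 934.71 FPKM. Without Krt20 the sums were 3410.3 and 3420.4 in wild type against 960.5 and 1084.0 FPKM in knockout. Of 10 fibroblast and smooth muscle markers 9 fell and 0 rose, with sums of 2335 and 2515 in wild type against 1051 and 1347 in knockout, Tagln and Acta2 being the most abundant. The smooth muscle genes Tagln, Acta2, Des and Myh11 led that sum and differed by -1.02, -1.02, -0.89 and -1.06 on the log2 scale. Most of the fibroblast genes fell less. Col1a1 (not called), Col3a1, Pdgfra, Dcn, Col1a2 and Lum differed by -0.25, -0.33, -0.40, -0.48, -0.67 and -1.26. Of 8 endothelial markers 4 fell and 0 rose (sums 50.7, 49.9, 27.9 and 31.6 FPKM), with Plvap and Pecam1 in the lead. Plvap was listed at 26.95, 26.39, 13.92 and 16.23 FPKM in the 2 wild-type and the 2 knockout libraries. Endothelium is also known to express Slco2a1, and the part of these cells in its values was not tested.

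The 4 prostaglandin genes that fell were also set against these sums within each library, a comparison chosen after the values were seen. Relative to the colonocyte sum, the log2 ratio of Hpgd was -5.17 and -5.49 in wild type against -5.95 and -6.30 in knockout, a mean difference of -0.79. That difference depended on whether Krt20 was in the sum. Relative to the sum without it, the ratio of Hpgd was -5.00 and -5.33 in wild type against -5.00 and -5.41 in knockout. The mean difference was then -0.04, with overlapping groups. Slco2a1 differed by -0.61 relative to the colonocyte sum, -0.57 relative to the fibroblast and smooth muscle sum and -0.84 relative to the endothelial sum, with no overlap between groups. Without Krt20 in the colonocyte sum its difference was 0.15, with overlapping groups. Hpgd differed by -0.75 and -1.02 relative to the fibroblast and smooth muscle and the endothelial sums. The 6 colonocyte markers without Krt20 were kept because they fell, so dividing by their sum raises every gene's ratio in knockout. The overlap of Hpgd and of Slco2a1 relative to those 6 markers was partly set by that choice. Ptgs1 differed by 0.06, 0.10 and -0.16 relative to the colonocyte, fibroblast and smooth muscle, and endothelial sums, with overlapping groups each time, and by 0.82, higher in knockout, without Krt20 in the colonocyte sum. Pla2g4a was higher by 0.38 relative to the colonocyte sum (1.14 without Krt20) and by 0.43 relative to the fibroblast and smooth muscle sum. Because smooth muscle genes led the fibroblast and smooth muscle sum, ratios to it do not describe fibroblasts. None of the 4 genes was set against fibroblast genes alone. Relative to the general epithelial sum, Hpgd, Slco2a1, Ptgs1 and Pla2g4a were all lower in knockout, with differences of -1.92, -1.74, -1.07 and -0.74 on the log2 scale. The part of cell composition in each fall was not tested beyond these ratios.

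Among other cells known for prostanoid synthesis, tuft and mast cell markers were low and macrophage markers were not. Tuft cell markers summed to 5.85 and 5.86 FPKM in wild type against 6.33 and 6.10 in knockout, and of the 3 tested 1 rose (Avil) and 1 fell (Trpm5), while Dclk1 was listed at 2.15, 1.28, 1.09 and 1.21 FPKM. Among mast cell markers Kit, the 1 tested, fell by 1.48 on the log2 scale. Its wild-type values of 7.87 and 7.74 FPKM lay far above those of the other mast cell markers. Whether the Kit RNA came from mast cells was not tested. Mcpt1 was counted too low to test (at most 3.66 FPKM), at 1 and 2 in wild type against 19.99 and 6 in knockout. Mcpt2, also too low to test, was counted at 2 and 0 against 8.01 and 2. Cpa3 was listed at 0 in 3 libraries and at 0.26 FPKM in knockout replicate 1. Fcer1a and Tpsb2 were likewise at 0 in 3 libraries, and at 0.18 and 0.17 FPKM in knockout replicate 2. These markers thus had no common direction. Macrophage and dendritic cell markers rose in 6 of 8 cases and fell in 0, with sums of 292.6 and 313.2 FPKM in wild type against 417.7 and 455.3 in knockout and with Lyz2 and C1qa leading. Of 5 neutrophil markers tested 3 rose, among them S100a8 by 5.51 on the log2 scale. Ly6g is listed only in the replicate 2 files, at 240.64 FPKM in wild type and 206.33 FPKM in knockout, so the neutrophil sums (6.95, 251.0, 155.4 and 338.0 FPKM in turn) rest largely on which file lists it. The part of these cells in the values of Ptgs1, Ptgs2, Hpgds and Fpr2 was not tested.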

How the data were processed

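RNA-seq was compared in 2 wild-type and 2 knockout libraries, grouped by their titles. Per the file headers, the authors deposited an expected count (an estimated count that need not be whole), an FPKM value and a transcript length (unit other) per gene. Of the 40 expected counts of the 10 genes, 39 are whole with no tolerance. The submitters' processing notes name Bowtie2, BWA and the human build hg19, while the labels and the RefSeq transcripts are mouse, so gene coordinates are not used. For the quantification tool, the sources used here give no name. Entrez identifiers were matched to symbols in the mouse RefSeq table (GRCm38.p6), 99.72% of them. A gene absent from one file entered as 0. Annotation versions follow the replicate number in both genotypes, and between them 574 to 576 genes had other transcript lists, with Ptgs2 given 4150 bases in one and 4460 in the other.

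After rounding, expected counts went into edgeR 4.0.16 under R 4.3.3 (low counts removed by filterByExpr, TMM factors of 0.9647 to 1.036, glmQLFit and glmQLFTest, two-sided, no block). The biological coefficient of variation was 12.9%. Simulated data with a single dispersion for all genes were run on 13372 genes, few of them changed. The fit gave back 72.9% of 96 genes changed by 1 on the log2 scale and 97.9% of 97 changed by 2, with 12 false calls. A far larger share of genes was called in the real data, so these rates need not hold there. Intervals of fold changes use the moderated degrees of freedom. Whether replicates are separate mice is not stated in the labels. The p-values then reflect only how these libraries vary, and that variation may be technical. The members, the lists and the other choices were made with earlier results of these data known. Besides the 10 genes, those named are up to 4 called genes per list by p with a log2 change of at least 1, and the 2 most abundant markers per cell type. The lymphocyte marker list is not reported here. Krt20, Pla2g2e, Pla2g2f, Pla2g4f, Pla2g3, Pla2g10, Mgll, Faah, Prxl2b, Gstm2, Ptgr2, Zadh2, Alox5, Epcam, Cdh1, Cpa3, Mcpt2 and Trpm5 were named after their values were seen. So were Des, Myh11, Col1a1, Col1a2, Col3a1, Dcn, Lum, Pdgfra, Ptgfrn, Alox5ap, Fcer1a and Tpsb2. The alternatives were 16 settings with edgeR, DESeq2 1.42.0 and limma 3.58.1.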

Additional observations from a re-analysis of the deposited data

How the results depend on the processing

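Over 16 alternative settings, Hpgd (log2 fold change -1.84 to -1.52), Slco2a1 (-1.73 to -1.25), Ptgs1 (-1.12 to -0.52) and Ptges3 (0.38 to 0.62) kept their direction and stayed called in each. Pla2g4a lost its call with DESeq2 (-0.50) and without wild-type or knockout replicate 1 (-0.36 and -0.42), and was not in the fit restricted to genes with one transcript list. The cause was not tested. Ptgs2 and Ptges stayed uncalled in the 15 settings that kept them, since a mean FPKM of at least 5 leaves them out. Ptgr1, Ptges2 and Ptger4 stayed uncalled in all 16. The sign of Ptges2 turned with library totals alone (-0.08), a mean FPKM of at least 5 (-0.05), limma with a pseudocount of 1, 0.1 or 0.01 (-0.08 each), rescaled FPKM (-0.15), quantile normalized FPKM (-0.05) and without knockout replicate 1 (-0.10). That of Ptger4 turned with quantile normalized FPKM (0.01) and without knockout replicate 1 (0.14), and leaving out each library in turn gave -0.30 to 0.14. Library totals alone and rescaled FPKM moved the median of all genes from -0.002 to -0.103 and -0.147. Of the related genes, 13 rather than 20 were called higher with a mean FPKM of at least 5, where fewer genes are tested.

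Replicate numbers do not pair the libraries by the labels. Deviations of replicate 1 from the group mean correlated between genotypes at 0.264 over 12991 genes with one transcript list, and the numbers share an annotation. With a replicate block 3855 genes were higher and 3548 lower, 22 and 16 of the related genes, and the same numbers of the 10 genes as without it (1 and 4). Low counts limit Ptgs2, counted at 25 to 45 per library. Relative to the colonocyte marker sum, leaving out Krt20 moved the difference of Hpgd from -0.79 to -0.04 and that of Slco2a1 from -0.61 to 0.15. Krt20 was left out after the data were seen, as the marker that rose, and leaving it out raises every gene's ratio in knockout.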
